A study of Mus musculus with 18 samples.

Results

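The p53 target genes described here are 34 genes of mouse embryonic fibroblasts (MEFs), namely 33 genes that the transcription factor p53 is known to switch on and Trp53, the gene of p53 itself. They were taken by symbol from a table of read counts for 48709 genes, in which each of the 34 had 1 row, and all 34 passed the filter on low counts that left 13702 genes to test. The cells came from C57BL/6 mice and carried no other stated allele. They received a control siRNA (labelled Mock) or an siRNA against Imp2 (Igf2bp2), an RNA-binding protein that reads the m6A mark on mRNA. From 24 h after transfection they were left untreated or given the cytokine interleukin-17 (IL-17) at 200 ng/mL for 8 h, which made 4 groups of 3 RNA-seq libraries each. RNA bound to IMP2 came from a separate RNA immunoprecipitation (RIP-seq) of MEFs given IL-17 for 3 h, of which 3 were anti-IMP2 and 3 control IgG precipitations. The study asked how IMP2 takes part in the response to IL-17. Whether the MEFs were primary or immortalised, and whether the 3 libraries of a group came from separate cultures, is not stated by any source at hand, so p-values measure only the spread between these libraries.

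p53 is a tetrameric transcription factor that MDM2, a ubiquitin ligase and itself a p53 target, keeps at a low level in resting cells. DNA damage, ribosomal stress or oncogene activity stabilises the p53 protein, mostly without a change of its mRNA, and the protein then binds paired decamers in the DNA of its target genes. The targets include the cell cycle inhibitor p21 (Cdkn1a), the cell death genes Bbc3 (PUMA), Pmaip1 (NOXA) and Bax, and enzymes of DNA repair and metabolism. Fibroblasts mostly answer p53 by arresting, with p21 as a main effector, and their p53 pathway is often studied because it limits how long they divide in culture.

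Among the 34 genes, 26 matched a promoter window in the RefSeq table (GRCm38.p6), which runs from 250 bases before to 50 bases after a start site. The windows were searched for the p53 response element consensus, 2 decamers of 10 bases with no spacer, with both C and G cores kept and up to 3 mismatches over the 20 bases. The consensus is the same on both strands. It was found in windows of 7 of the 26 members (26.9%), against 1.63% of all 27025 genes in the table. A perfectly spaced pair of cores, CATGNNNNNNCATG, lay in the window of 1 of the 26 members, Cdkn1a, against 0.833% of all genes (0.712% of all 32851 windows). This pair falls inside the p53 element found there. The 7 stretches are shown since they are the p53 elements that these windows hold. Capitals mark the 20-base element. A position is counted from the start site of the window at hand. The 26 members had 34 windows, so a gene can have other start sites, and which is mainly used was not tested. The flanks are shorter where the stretch lies within the gene as the count table bounds it.

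Cdkn1a (chr17:29090888-29090978, plus strand, 1 mismatch, positions -51 to -32 from the start site): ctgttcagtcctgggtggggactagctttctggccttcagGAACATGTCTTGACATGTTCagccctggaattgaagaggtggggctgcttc
Ccng1 (chr11:40755422-40755521, minus strand, 1 mismatch): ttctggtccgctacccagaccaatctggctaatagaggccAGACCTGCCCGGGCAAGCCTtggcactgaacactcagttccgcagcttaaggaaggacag
Trp53 (chr11:69580244-69580343, plus strand, 3 mismatches): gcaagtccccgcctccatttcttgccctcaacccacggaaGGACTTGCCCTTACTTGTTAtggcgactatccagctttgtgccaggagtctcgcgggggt
Rps27l (chr9:66946291-66946320, plus strand, 1 mismatch): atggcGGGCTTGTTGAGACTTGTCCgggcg
Bbc3 (chr7:16309481-16309510, plus strand, 3 mismatches): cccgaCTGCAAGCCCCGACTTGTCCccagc
Aen (chr7:78895932-78895961, plus strand, 3 mismatches): aagccGGGCTTGTCCGGGCAAGGAGcttcc
Sesn1 (chr10:41887261-41887290, plus strand, 3 mismatches): ccttcAAGCTTGTTTTTGCTGGCCTggtcc

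A match is a description of these letters, not a measured binding site. The expression results below put these 7 genes on every side of the test. Cdkn1a, Bbc3 and Aen rose with Imp2 siRNA, Sesn1 fell, and Ccng1, Trp53 and Rps27l did not pass. No window was at hand for Ddb2, Perp, Pmaip1, Rrm2b, Tnfrsf10b, Trp53inp1, Xpc and Zmat3.

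The RNA-seq libraries held 33841054 to 44433699 counts. Library titles carry 1 of 2 prefixes, RB160 (replicate 1 of each group) or NA (replicates 2 and 3), and no label explains them. Mitochondrial transcripts took 3.31% to 3.85% of counts in the RB160 libraries and 5.41% to 6.90% in the NA libraries, and many p53 target genes differed by prefix, as their values below show. Each group holds the prefixes in the same numbers, and the prefix was a term of the model. Igf2bp2, the siRNA's target, was at 134 to 167 CPM (read counts put on the same library size) in the 6 control siRNA libraries and at 18.4 to 28.2 CPM in the 6 Imp2 siRNA libraries, a log2 fold change of -2.77 ± 0.165 (SE, edgeR adjusted p = 2.71e-06) without IL-17 and -2.70 ± 0.164 (3.01e-06) with it. Defining markers of the fibroblast label were detected, though Lum (0 to 7.00 CPM) and Thy1 (0.0714 to 5.90 CPM) were low. They moved with the siRNA: of 11 fibroblast markers 2 rose and 8 fell in both siRNA comparisons, the latter including Pdgfra and Dcn. Of 6 smooth muscle markers 5 rose. Summed over a library, the smooth muscle markers took 4285 to 10592 CPM in control siRNA cells and 9329 to 21161 CPM in Imp2 siRNA cells. The fibroblast markers took 14870 to 20425 and 16853 to 22612 CPM, most of it Col1a1 (7143 to 12361 CPM) and Col1a2 (4132 to 7045 CPM). Macrophage markers summed to 3.81 to 6.09 CPM with Adgre1 at 0, endothelial markers to at most 1.502 CPM, neural and glial markers to 36.8 to 61.4 CPM, and erythroid markers to at most 0.0941 CPM with Hbb-bt and Hba-a1 at 0. Epithelial markers summed to 37.9 to 125 CPM in control siRNA cells and 50.7 to 207 CPM in Imp2 siRNA cells, nearly all of it Krt19, with Epcam at 0.186 CPM or less. Krt19 rose by 0.73 ± 0.0954 on the log2 scale (edgeR adjusted p = 0.000104) and 0.63 ± 0.0956 with IL-17 (0.000311). Krt8 rose and Cdh1 fell in both comparisons, and Krt18 rose with IL-17, all at very low counts. Their highest library values were 0.780 CPM (Krt8), 1.47 CPM (Cdh1) and 1.91 CPM (Krt18). The part of these shifts in the p53 target results was not tested, and in such bulk samples fewer cells of a type and less RNA per cell cannot be told apart.

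More p53 target genes rose than fell with Imp2 siRNA, and 16 of the 34 changed in the same direction whether or not the cells were given IL-17. Without IL-17, 12 of 34 rose, against 16.1% of all 13702 genes tested, and 5 fell, against 16.4%. With IL-17, 13 rose (16.7% of all genes) and 4 fell (16.6%). Of the members, 12 rose in both comparisons and 4 fell in both. Among all genes tested, 13.3% rose and 13.2% fell in both. The median log2 fold change of the 34 genes was 0.10 without IL-17 and 0.11 with it, beside -0.00036 and -0.0067 for all genes, and 67.6% and 70.6% of members had a positive value, beside 49.9% and 49.0% of all genes. The Imp2 siRNA comparisons without and with IL-17 share no library. They come from the same fit, with a shared prefix term and a shared estimate of the spread, so they are not independent. The largest rises without IL-17 were in the death genes Pmaip1 and Bbc3 and in Cdkn1a and Perp, at 1.43-fold to 2.46-fold, and the largest falls were in Dram1 and Sesn1.

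**Figure D1:**
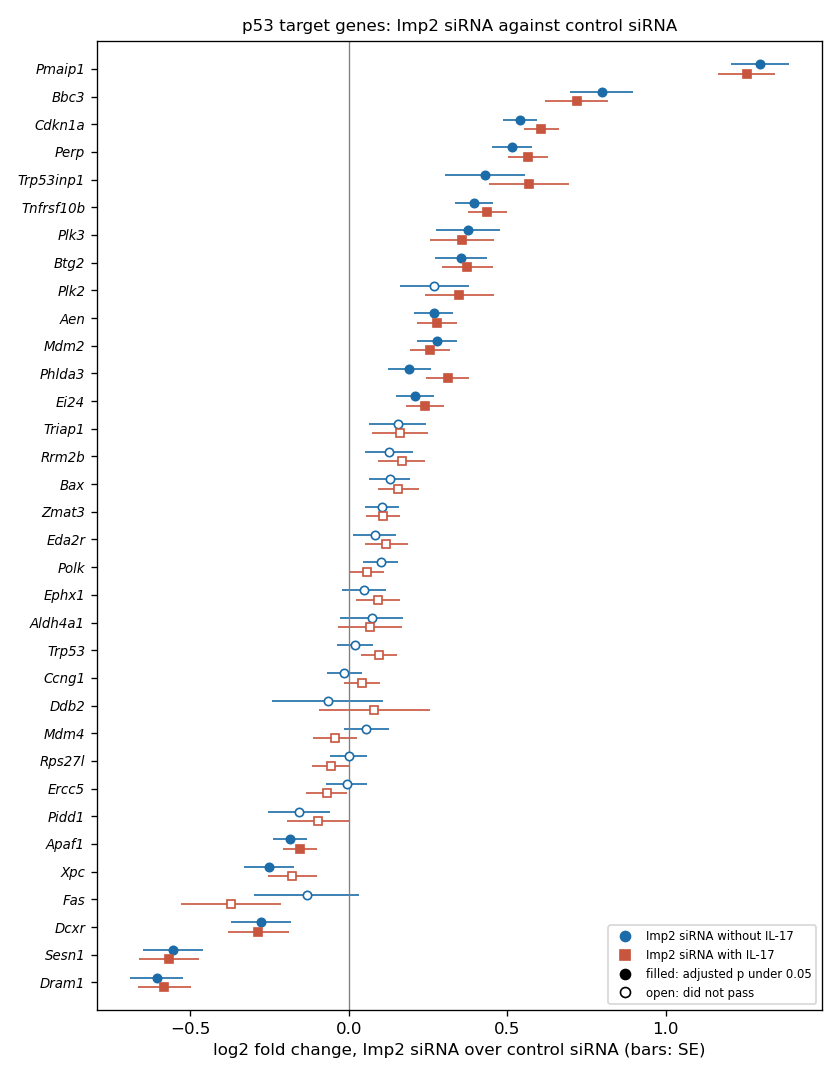
Log2 fold change of each of the 34 p53 target genes, Imp2 siRNA over control siRNA (horizontal axis), without IL-17 (circles) and with IL-17 (squares). Bars are the SE, filled symbols passed an adjusted p of 0.05, and Pmaip1 lies farthest to the right at 1.30 and 1.26 while Dram1 and Sesn1 lie between -0.61 and -0.55.

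Of the 34 members, 26 without IL-17 and 32 with it had log2 ratios of the same sign in the RB160 and in the NA libraries, beside 72.6% of all genes tested in each comparison. Such a ratio sets 1 library against 1 in RB160, with no spread, and 2 against 2 in NA. The calls rest on the prefix term: without it no member passed in either direction, at log2 fold changes close to those with it (Cdkn1a 0.55, adjusted p = 0.616, and Pmaip1 1.35, adjusted p = 0.203, without IL-17), while 0.920% of all genes were called higher and 1.29% lower without IL-17. Only members past the threshold in the comparison at hand were checked next. Among them the log2 ratio of 1 RB160 library to 1 other differed by over 1.5 times from the fitted value for Aen (0.44) and Apaf1 (-0.11) without IL-17. With IL-17 it did so for Mdm2 (0.39), Bbc3 (0.42), Plk2 (0.66), Plk3 (0.65), Ei24 (0.12) and Dcxr (-0.45). Trp53inp1 also differed, as given with that gene. In the following, 3 values in a row are replicates 1, 2 and 3 of a group, of which the first is the RB160 library. Members are also counted by role, in groups of few genes. Beside those counts, 16.1% of all genes were higher and 16.4% lower without IL-17, and 16.7% and 16.6% with it.

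Checkpoint genes hold the cell cycle. Of the 4 members of this group 3 rose without IL-17 and all 4 with it. Cdkn1a (ENSMUSG00000023067, chr17:29090979-29100722) encodes p21, which inhibits cyclin-dependent kinases. It was at 218, 427 and 416 CPM in control siRNA cells and at 303, 623 and 631 CPM in Imp2 siRNA cells. In the groups given IL-17 it was at 188, 430.0 and 395 CPM with the control siRNA and at 296, 608 and 632 CPM with the Imp2 siRNA. The groups overlapped when prefixes were pooled, as the NA libraries held 2.07 times the RB160 level, but within each prefix every Imp2 siRNA library was above every control library. The log2 fold change was 0.54 ± 0.0549 (SE, edgeR adjusted p = 6.65e-06) without IL-17 and 0.61 ± 0.0549 (2.52e-06) with it, or 1.45-fold and 1.52-fold.

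Btg2, an antiproliferative partner of the mRNA deadenylation machinery, was at 74.4, 85.2 and 73.1 CPM in control siRNA cells and at 87.7, 109.6 and 101 CPM in Imp2 siRNA cells. With IL-17 added, it was at 74.9, 94.1 and 76.0 CPM against 92.3, 116 and 110.5 CPM. Without IL-17 the 3 Imp2 siRNA libraries lay above all 3 control libraries, whereas with IL-17 the lowest Imp2 siRNA library was just under the highest control one. Btg2 rose by 0.35 ± 0.0807 on the log2 scale (edgeR adjusted p = 0.00412) and by 0.37 ± 0.0805 with IL-17 (0.00272). Plk3, a stress-responsive polo-like kinase, was at 7.97, 18.5 and 17.9 CPM against 11.7, 22.0 and 22.9 CPM without IL-17, and at 8.47, 19.9 and 17.8 against 13.5, 20.8 and 22.6 CPM with it. It rose by 0.38 ± 0.101 (adjusted p = 0.0107) and 0.36 ± 0.1005 (0.0139). The Plk3 call was lost without control siRNA replicate 1 (adjusted p = 0.0511), and with IL-17 without replicate 1 (0.0787) or 3 (0.0512) of the control group, without Imp2 siRNA replicate 1 (log2 0.22, adjusted p = 0.0870) and in the 8 NA libraries alone (0.19, adjusted p = 0.111). Plk2, the related kinase, rose with IL-17 by 0.35 ± 0.109 (adjusted p = 0.0289), a call that was lost in 5 of 6 fits that left out 1 library (adjusted p = 0.0503 to 0.0970, all but control replicate 2) and with no filter on low counts (0.0540). The log2 value was 0.19 without control replicate 1 and 0.20 in the NA libraries alone. Without IL-17 its log2 value was 0.27 ± 0.109 (adjusted p = 0.0799), which passed in DESeq2 (0.27, adjusted p = 0.0408), with a term for every pair of group and prefix (0.30, 0.00152) and with the compared groups alone (0.26, 0.0221).

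**Figure D2:**
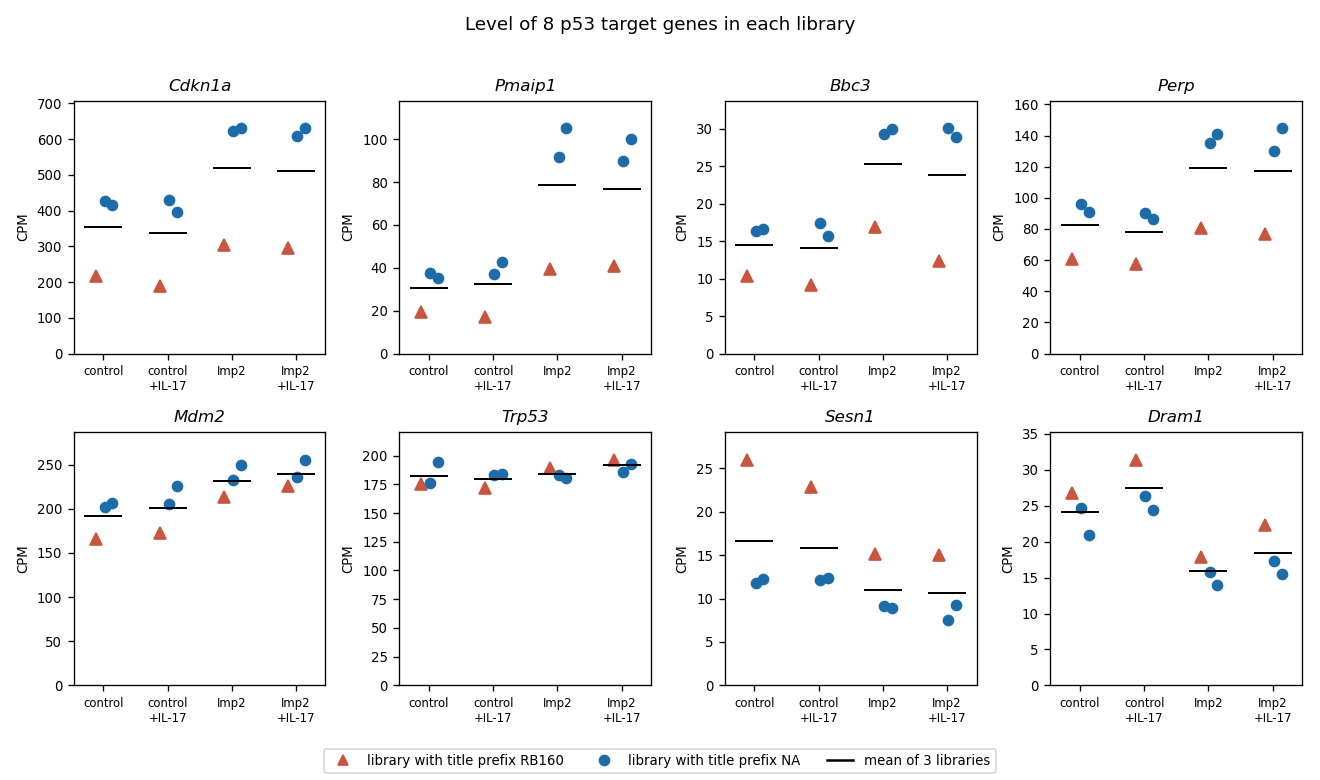
Level in CPM (vertical axes, from 0) of 8 p53 target genes in each RNA-seq library of the 4 groups; triangles are libraries with the title prefix RB160, circles those with the prefix NA, and lines the mean of 3 libraries. Cdkn1a, Pmaip1, Bbc3 and Perp are higher with Imp2 siRNA within each prefix, Trp53 stays between 172 and 197 CPM, and Sesn1 and Dram1 are lower with Imp2 siRNA within each prefix.

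The gene of p53 itself did not pass in any comparison. Trp53 (ENSMUSG00000059552, chr11:69580359-69591873) was at 175, 176 and 194 CPM in control siRNA cells and at 189, 184 and 181 CPM in Imp2 siRNA cells. In cells given IL-17 it was at 172, 183 and 184 CPM and, with Imp2 siRNA, at 197, 186 and 193 CPM. The groups overlapped without IL-17 and lay side by side without overlap with it, and Trp53 was 1 of the few members whose level hardly differed by prefix, the NA libraries holding 1.01 times the RB160 level. Its log2 fold changes with Imp2 siRNA were 0.02 ± 0.0560 (adjusted p = 0.821) and 0.10 ± 0.0559 with IL-17 (0.208).

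Of the 4 genes that feed back on p53, Mdm2 and Trp53inp1 rose in both siRNA comparisons and Mdm4 and Ccng1 passed in neither. Mdm2, the ubiquitin ligase of p53, was at 166, 202 and 207 CPM in control and 214, 232 and 249 CPM in Imp2 siRNA cells. With IL-17 its values were 173, 206 and 226 CPM against 226, 236 and 256 CPM. The groups overlapped in neither comparison, though with IL-17 the nearest libraries stood at 225.9 and 226.1 CPM. Mdm2 rose by 0.28 ± 0.0622 on the log2 scale (edgeR adjusted p = 0.00351) and by 0.26 ± 0.0622 with IL-17 (0.00565), the latter not past the threshold in the 8 NA libraries alone (0.18, adjusted p = 0.0595). Mdm4, the relative of MDM2 that binds p53 and restrains its activity, was at 101, 66.9 and 68.1 CPM against 96.1, 71.1 and 74.98 CPM, and with IL-17 at 119, 67.5 and 80.2 against 112, 73.4 and 72.5 CPM. These groups overlapped, with log2 values of 0.05 ± 0.0709 and -0.04 ± 0.0706 (adjusted p = 0.591 and 0.682). Trp53inp1, a stress-induced partner that promotes p53 activity, was at 58.9, 40.3 and 30.6 CPM in control and 60.5, 55.8 and 55.2 CPM in Imp2 siRNA cells, and with IL-17 at 50.1, 38.4 and 39.6 against 68.0, 60.5 and 60.5 CPM. The difference without IL-17 lay in the NA libraries, at a log2 ratio of 0.65 against 0.04 in RB160, whereas with IL-17 both prefixes showed it (0.63 and 0.44). Its fitted log2 fold changes were 0.43 ± 0.126 (adjusted p = 0.0233) and 0.57 ± 0.125 (0.00519). Without control replicate 3 the first value was 0.27. The first call was lost without control replicate 2 (adjusted p = 0.0548), without Imp2 siRNA replicate 2 (0.0789) or 3 (0.0814), with no filter on low counts (0.0574) and with the compared groups alone (0.0864). Ccng1, cyclin G1, which recruits a phosphatase to MDM2, was at 531 to 723 CPM over the 12 libraries with log2 values of -0.01 and 0.04 (adjusted p = 0.880 and 0.610).

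Cell death genes made up 14 of the members, of which 7 rose and 2 fell in each siRNA comparison. The BH3-only proteins, which free BAX and its kin to open the mitochondrial outer membrane, gave the largest values. Pmaip1 (NOXA, ENSMUSG00000024521) was at 19.5, 37.7 and 35.3 CPM in control siRNA cells and at 39.3, 91.8 and 105 CPM in Imp2 siRNA cells. The IL-17 groups held 17.0, 37.1 and 42.6 CPM against 40.8, 90.0 and 100.1 CPM. Within each prefix the lowest Imp2 siRNA library was well above the highest control library, and the NA libraries held 2.31 times the RB160 level. Pmaip1 rose 2.46-fold (log2 1.30 ± 0.0913, edgeR adjusted p = 4.57e-07) and 2.39-fold with IL-17 (1.26 ± 0.0907, 5.65e-07).

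Bbc3 (PUMA, ENSMUSG00000002083, chr7:16308393-16318205) was at 10.3, 16.4 and 16.7 CPM in control and 16.9, 29.3 and 29.9 CPM in Imp2 siRNA cells, so that without IL-17 no control library reached the Imp2 siRNA libraries. With IL-17 it was at 9.12, 17.4 and 15.7 CPM against 12.4, 30.2 and 29.0 CPM, where the RB160 library with Imp2 siRNA lay under both NA control libraries. It rose by 0.80 ± 0.0991 (adjusted p = 3.58e-05) and 0.72 ± 0.0991 (8.55e-05) on the log2 scale. Bax, the pore-forming effector, was at 106 to 169.5 CPM over all libraries, with log2 values of 0.13 ± 0.0645 (adjusted p = 0.138) and 0.16 ± 0.0644 (0.0764). With IL-17 it passed when the 8 NA libraries were fitted alone (0.21, adjusted p = 0.0482) and without Imp2 siRNA replicate 1 (0.21, adjusted p = 0.0407). Apaf1, the scaffold of the apoptosome, went the other way. Its levels were 69.7, 53.1 and 51.9 CPM against 64.6, 44.9 and 44.9 CPM without IL-17 and 66.3, 49.0 and 53.1 against 60.6, 45.9 and 45.2 CPM with it, the RB160 libraries being above the NA libraries in every group. It fell by 0.18 ± 0.0538 (adjusted p = 0.0174) and 0.15 ± 0.0538 (0.0413). The first of these calls was lost without Imp2 siRNA replicate 2 (0.0708) or 3 (0.0765), and the second in 5 of 6 fits that left out 1 library (adjusted p = 0.0540 to 0.187, all but control replicate 2), with no filter on low counts (0.0980), in the NA libraries alone (0.0738), with a term for every pair of group and prefix (0.0621) and with the compared groups alone (0.0642). Pidd1, the core of the complex that activates caspase 2, was at 20.3 to 28.8 CPM and passed in neither comparison (log2 -0.16 and -0.10).

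Of the 3 receptors among the cell death genes 1 rose. Tnfrsf10b, the mouse TRAIL receptor, was at 59.1, 83.2 and 87.6 CPM in control and 77.8, 107 and 118 CPM in Imp2 siRNA cells, and with IL-17 at 56.1, 79.5 and 83.2 against 76.6, 102 and 117 CPM. Within each prefix all Imp2 siRNA libraries were higher, by the same log2 ratio of 0.39 in RB160 and NA libraries without IL-17, and by 0.45 and 0.43 with it. The fitted rises were 0.39 ± 0.0608 (edgeR adjusted p = 0.000228) and 0.44 ± 0.0608 (9.19e-05). Fas was at 5.82 to 27.0 CPM, 2.57 times higher in RB160 than in NA libraries, with log2 values of -0.13 ± 0.165 (adjusted p = 0.577) and -0.37 ± 0.157 (0.0880). With IL-17 its value passed with the compared groups alone (-0.36, adjusted p = 0.0218) and with a term for every pair of group and prefix (-0.40, 0.00179). Eda2r, the receptor of ectodysplasin A2, was at 43.9 to 56.7 CPM with log2 values of 0.08 and 0.12 (adjusted p = 0.382 and 0.194).

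Among the remaining death genes Perp, Aen, Phlda3 and Ei24 rose in both comparisons, with smaller log2 values than Pmaip1 and Bbc3, while Dram1 fell in both and Triap1 passed in neither. Perp, a tetraspan membrane protein of the p53 death response (ENSMUSG00000019851, chr10:18845071-18857073), was at 60.5, 95.8 and 91.1 CPM in control and 80.8, 135 and 141 CPM in Imp2 siRNA cells. The values with IL-17 were 57.5, 90.1 and 86.7 CPM against 76.8, 130.0 and 145 CPM. Within each prefix the Imp2 siRNA libraries were all higher, and the gene rose by 0.51 ± 0.0628 (edgeR adjusted p = 3.11e-05) and 0.56 ± 0.0629 (1.43e-05). Aen, a nuclease that promotes apoptosis, was at 124, 221 and 224 CPM against 169, 246 and 258 CPM and with IL-17 at 131, 224 and 219.8 against 173, 259 and 257 CPM. Its rises were 0.27 ± 0.0618 (adjusted p = 0.00429, and 0.17 in the NA libraries alone) and 0.28 ± 0.0617 (0.00320).

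Phlda3, which blocks AKT at the membrane, was at 148, 254 and 273 CPM against 173, 295 and 297 CPM, and with IL-17 at 115, 247 and 249 against 148, 304 and 304 CPM. The Phlda3 rise was 0.19 ± 0.0680 without IL-17 (adjusted p = 0.0436) and 0.31 ± 0.0680 with it (0.00287). The call without IL-17 was lost in the NA libraries alone (0.0700), without control replicate 2 (0.135) or 3 (0.0711) and without Imp2 siRNA replicate 1 (0.231) or 3 (0.0540), and its log2 value was 0.12 without Imp2 siRNA replicate 1. Ei24, an endoplasmic reticulum protein of autophagy, was at 92.6, 113 and 112 CPM against 106, 136 and 125 CPM and with IL-17 at 82.4, 103 and 106 against 89.8, 125 and 133 CPM. It rose by 0.21 ± 0.0601 (0.0157) and 0.24 ± 0.0602 (0.00693), the first lost without control replicate 3 (0.0543) or Imp2 siRNA replicate 1 (0.0706) or 2 (0.0640). Triap1, an inhibitor of apoptosis, was at 10.8 to 15.1 CPM and did not pass (log2 0.15 and 0.16).

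Dram1, a lysosomal protein that promotes autophagy and cell death (ENSMUSG00000020057, chr10:88322804-88379080), was at 26.8, 24.6 and 20.995 CPM in control and 17.9, 15.8 and 13.998 CPM in Imp2 siRNA cells. In the IL-17 groups it was at 31.4, 26.4 and 24.4 CPM against 22.3, 17.3 and 15.5 CPM. The groups did not overlap in either comparison, even with the prefixes pooled. Dram1 fell by 0.61 ± 0.0842 (edgeR adjusted p = 9.72e-05) and 0.58 ± 0.0831 (0.000116) on the log2 scale, to 0.657 and 0.668 of the control level.

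Of the 4 metabolic and redox members none rose and 2 fell. Sesn1, sestrin 1, which restrains mTORC1 and supports antioxidant defence (ENSMUSG00000038332, chr10:41810574-41908424), was at 26.0, 11.7 and 12.2 CPM in control and 15.1, 9.09 and 8.89 CPM in Imp2 siRNA cells. With IL-17 the values were 22.8, 12.1 and 12.3 CPM against 15.0, 7.57 and 9.25 CPM. The RB160 libraries held 1.90 times the NA level, so pooled groups overlapped, but within each prefix every Imp2 siRNA library was lower. Sesn1 fell by 0.55 ± 0.0945 (edgeR adjusted p = 0.000510) and 0.57 ± 0.0949 (0.000428). Dcxr, a carbonyl and xylulose reductase, was at 17.1, 16.1 and 20.9 CPM against 13.2, 15.3 and 16.2 CPM and with IL-17 at 17.0, 17.9 and 17.8 against 12.3, 15.5 and 15.8 CPM. It fell by 0.28 ± 0.0951 in each comparison (adjusted p = 0.0374 and 0.0329). Both Dcxr calls are near the threshold: the first was lost in 5 of 6 fits that left out 1 library (adjusted p = 0.0645 to 0.184, all but control replicate 2) and with the compared groups alone (0.0694), the second in all 6 such fits (0.0547 to 0.148), and both in the NA libraries alone (0.113 and 0.199). Without control replicate 3 its log2 value without IL-17 was -0.19. Ephx1, microsomal epoxide hydrolase, was at 232 to 309 CPM (log2 0.05 and 0.09) and Aldh4a1, a mitochondrial enzyme of proline breakdown, at 13.96 to 20.4 CPM (0.07 and 0.07).

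Of the 5 members in DNA repair and nucleotide supply, Xpc alone passed, in 1 comparison. Xpc, the damage sensor of nucleotide excision repair, was at 13.2 to 15.6 CPM in control and 10.9 to 13.2 CPM in Imp2 siRNA cells, a fall of 0.25 ± 0.0784 (edgeR adjusted p = 0.0240). That call was lost in the NA libraries alone (0.0659), with the compared groups alone (0.0625) and without replicate 1 (0.0692) or 3 (0.0812) of the control group or replicate 1 (0.0568) or 3 (0.119) of the Imp2 siRNA group. With IL-17 the Xpc value was -0.18 ± 0.0778 (0.0944). Ddb2, the ultraviolet damage sensor, had the lowest counts of all members, 1.33 to 5.04 CPM, with 2.61 times more in RB160 than in NA libraries and log2 values of -0.07 ± 0.175 and 0.08 ± 0.174. Rrm2b, the p53-induced subunit of ribonucleotide reductase, was at 18.1 to 28.3 CPM (log2 0.13 and 0.17, adjusted p = 0.220 and 0.104). Polk, a translesion polymerase, and Ercc5, a repair endonuclease, were at 42.3 to 48.6 and 26.2 to 37.7 CPM and did not pass (log2 0.10 and 0.06 for Polk, -0.01 and -0.07 for Ercc5). Neither did the 2 members that act on RNA and ribosomes. Zmat3, an RNA-binding splicing regulator, was at 98.3 to 133 CPM (log2 0.10 and 0.11), and Rps27l, a ribosomal protein that resembles Rps27 and may share reads with it, was at 92.8 to 127 CPM (log2 -0.00 and -0.06).

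IL-17 for 8 h gave no call among the 34 p53 target genes, which is near the low share of all genes called. In control siRNA cells 0 members passed in edgeR and 0 in DESeq2. Of all genes, 0.234% were higher and 0.175% lower in edgeR, and 0.657% and 0.752% in DESeq2. In these cells 5 members had an unadjusted p under 0.05. In Imp2 siRNA cells 0 passed with both tools (0.285% and 0.168% of all genes in edgeR), with 1 member under 0.05 unadjusted, and the median log2 value was -0.0027 in control and 0.018 in Imp2 siRNA cells. Cdkn1a had log2 values of -0.09 ± 0.0548 (edgeR adjusted p = 0.596) and -0.02 ± 0.0546 (1.00). Pmaip1 had values of 0.02 ± 0.0922 and -0.02 ± 0.0879. For Trp53 they were -0.02 ± 0.0559 and 0.06 ± 0.0559.

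Fas, the death receptor whose ligand triggers caspase 8, had the largest IL-17 value. It was at 14.9, 6.47 and 5.82 CPM without and 27.0, 7.81 and 8.06 CPM with IL-17 in control siRNA cells, and at 10.7, 6.23 and 6.56 against 17.8, 6.90 and 6.84 CPM in Imp2 siRNA cells. Each library with IL-17 was above each library of the same prefix without it. The log2 values were 0.57 ± 0.159 (edgeR adjusted p = 0.195) and 0.33 ± 0.164 (0.738), larger in RB160 libraries (0.84 and 0.71) than in NA libraries (0.34 and 0.10). With a term for every pair of group and prefix Fas passed in both (0.61, adjusted p = 0.000549, and 0.42, adjusted p = 0.0156), and with the compared groups alone in control siRNA cells (0.56, adjusted p = 0.0237). The other members with an unadjusted p under 0.05 in control siRNA cells were Ephx1 (-0.18), Phlda3 (-0.17), Mdm4 (0.17) and Dram1 (0.18), of which Dram1 was also under it in Imp2 siRNA cells (0.20). These log2 values have adjusted p of 0.340 to 0.584. The fit with a term for every pair of group and prefix called Phlda3 (-0.22, adjusted p = 0.0348) and Ephx1 (-0.22, adjusted p = 0.0380) lower in control siRNA cells, and the fit of the compared groups alone called Plk2 higher in Imp2 siRNA cells (0.21, adjusted p = 0.0313).

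**Figure D3:**
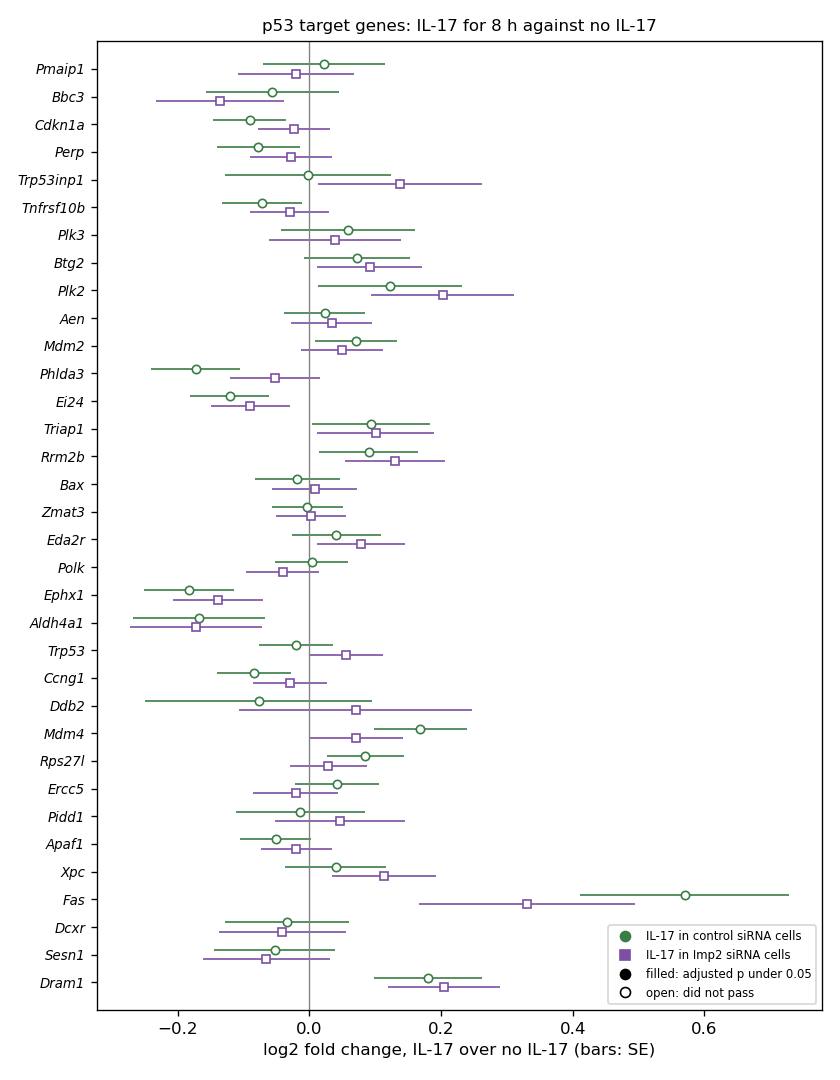
Log2 fold change of each of the 34 p53 target genes with IL-17 for 8 h over no IL-17 (horizontal axis), in control siRNA cells (circles) and Imp2 siRNA cells (squares), with bars for the SE. All symbols are open, as no member passed an adjusted p of 0.05, and Fas lies farthest to the right at 0.57 and 0.33.

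The IL-17 effect did not differ detectably between control and Imp2 siRNA cells for any of these genes. In the test of that difference edgeR called 0 members and 0% of all genes, DESeq2 0 members, and 0 members had an unadjusted p under 0.05. The differences in log2 ran from -0.24 ± 0.228 (Fas) to 0.15 ± 0.247 (Ddb2), and for Cdkn1a the value was 0.07 ± 0.0774.

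Genes around p53 were described from lists beside the 34 members. Of 28 other known p53 targets 26 were tested, and 8 rose and 3 fell without IL-17, 12 rose and 3 fell with it, beside 16.1% of all genes higher and 16.4% lower without IL-17 and 16.7% and 16.6% with it. The median log2 fold change of this list was 0.07 and 0.20, beside -0.00036 and -0.0067 for all genes. Among those past the threshold in both comparisons were Gadd45a, a DNA damage-induced stress gene (0.98 ± 0.216, edgeR adjusted p = 0.00793, and 0.90 ± 0.215, 0.0114), Gdf15, a stress-induced cytokine (0.82 ± 0.177 and 1.00 ± 0.180), and Igfbp3, an IGF-binding protein (-1.33 ± 0.291 and -1.03 ± 0.258). Among 32 regulators of p53, 30 were tested, and 3 rose and 5 fell without IL-17, 3 rose and 4 fell with it, shares near or under those of all genes. Their median log2 values were -0.03 and -0.04. Their largest changes were a rise of Ppp1r13l (iASPP, an inhibitor of p53, 0.87 ± 0.0792 and 0.80 ± 0.0797) and falls of the p53 relative Trp63 (-1.59 ± 0.330 and -1.90 ± 0.342), the checkpoint kinase gene Chek1 (-0.51 ± 0.138 and -0.48 ± 0.138) and Trim24, a ubiquitin ligase of p53 (-0.35 ± 0.0598 and -0.33 ± 0.0599).

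p21 acts on the cell cycle partly through the DREAM complex, which represses genes of DNA replication and mitosis. All 20 tested genes of this kind had negative log2 values with Imp2 siRNA. Of all genes, 49.9% without IL-17 and 49.0% with it had positive values. Of the 20 genes, 4 fell past the threshold without IL-17 and 3 with it, close to the 16.4% and 16.6% of all genes. The median was -0.45 without and -0.39 with IL-17, and these genes are known to move together, so the 20 values are not independent. The genes that fell in both were Ccnb2, cyclin B2 (-0.79 ± 0.189, edgeR adjusted p = 0.0115, and -0.70 ± 0.191, 0.0206), and the replication helicase subunits Mcm5 (-0.68 ± 0.119 and -0.66 ± 0.1197) and Mcm2 (-0.46 ± 0.0689 and -0.40 ± 0.0689). Values for IL-17 in these genes were negative in 20 of 20 in control and 19 of 20 in Imp2 siRNA cells. Of all genes, 47.9% and 47.2% had positive values there. Among the 20 genes 0 were past the threshold in edgeR and 0 had an unadjusted p under 0.05. Of the 6 other inhibitors of cyclin-dependent kinases (Cdkn1b, Cdkn1c, Cdkn2a, Cdkn2b, Cdkn2c and Cdkn2d) 0 passed with Imp2 siRNA in edgeR, with 1 and 2 of them under an unadjusted p of 0.05. Of 15 other BCL2 family genes 11 were tested, and 4 rose and 1 fell without IL-17, 6 rose and 1 fell with it, beside the 16.1% higher and 16.4% lower, and 16.7% and 16.6%, of all genes. Their median log2 values were 0.13 and 0.19. They include genes that promote death, such as Bik (1.80 ± 0.355 and 1.45 ± 0.295) and Bok (0.32 ± 0.0850 and 0.49 ± 0.0857), and the survival gene Bcl2l1 (BCL-XL, 0.37 ± 0.0627 and 0.30 ± 0.0626). The gene that fell was Bcl2l11 (BIM, which promotes death, -0.52 ± 0.0828 and -0.56 ± 0.0812).

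RIP-seq measures which RNAs come down with an antibody, here against IMP2, relative to IgG. The authors' deposited table lists 5294 genes enriched with anti-IMP2 with a log2 fold change that reaches 1 and an adjusted p no higher than 0.05, and 18 of the 34 p53 target genes are among them (52.9%), against 34.5% of all genes tested in RNA-seq. Genes that did not reach these limits are not in that table, so a gene not listed has no value here. Listing moved with the level of the RNA. Of all genes under 20 CPM 17.0% were listed, of those from 20 to 100 CPM 48.2% and of those from 100 CPM 56.6%, beside 3 of 9, 5 of 13 and 10 of 12 p53 target genes. The listed members had a median of 108 CPM and those not listed one of 23.0 CPM, and the part of level in the share of listed members was not tested. Within the authors' deposited table the members had a median log2 fold change of 2.08, beside 2.16 for all listed genes.

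In the authors' deposited table Bax had the highest value of the members, a log2 fold change of 3.80 ± 0.436 (authors' SE, adjusted p = 1.69e-16), and Cdkn1a the next at 3.28 ± 0.461 (2.69e-11). They were followed in that deposited table by Triap1 (2.71), Fas (2.63), Trp53 (2.47 ± 0.358, adjusted p = 1.25e-10), Phlda3 (2.44), Rps27l (2.38), Perp (2.36), Ccng1 (2.08), Aen (2.07) and Ei24 (2.04). The lower values of the authors' deposited table belong to Pmaip1 (1.77 ± 0.588, adjusted p = 0.00723), Mdm2 (1.74 ± 0.597, adjusted p = 0.00910), Tnfrsf10b (1.59), Btg2 (1.52), Ephx1 (1.36), Polk (1.31) and Dcxr (1.27). Neighbours in this order differed by less than the larger of their SEs, apart from the pair Bax and Cdkn1a and the pair Cdkn1a and Triap1, which differed by slightly more. Listed in the authors' deposited table were 9 of the 12 members that rose in both siRNA comparisons, 1 of the 4 that fell in both and 8 of the 18 others. Among all genes tested, 39.8% of those that rose in both and 33.6% of those that fell in both were listed. Bbc3, Trp53inp1 and Plk3 rose and were not listed, and Bax and Trp53 were listed and did not change past the threshold.

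**Figure D4:**
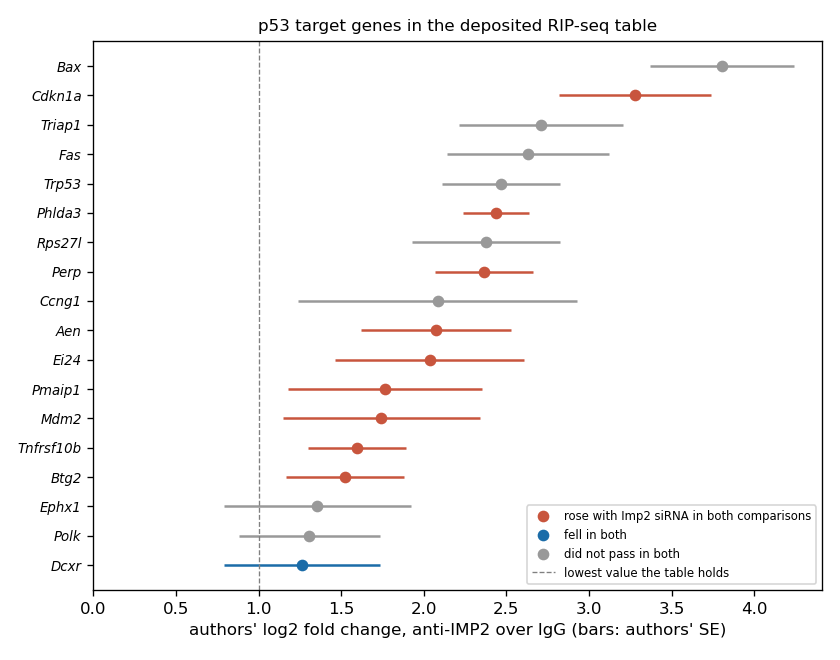
The authors' log2 fold change of anti-IMP2 over IgG (horizontal axis, bars are the authors' SE) for the 18 p53 target genes in their deposited RIP-seq table, coloured by the outcome of the Imp2 siRNA comparisons. Values run from 1.27 (Dcxr) to 3.80 (Bax), the dashed line marks the limit of 1 below which the table lists no gene, and the genes that rose with Imp2 siRNA lie between 1.52 and 3.28.

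A further deposited table of the authors lists 97 genes with a value for both RNA-seq and RIP-seq. Pmaip1 is the 1 member of the 34 in it, with a signed RNA-seq fold of 2.4 in the authors' deposited table and a motif call of Y. No source at hand says how motifs were called. That fold stands beside 2.46 and 2.39 for Pmaip1 in the siRNA comparisons above, and which comparison the authors' fold refers to is not given.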

How the data were processed

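RNA-seq libraries (Nextera XT) and RIP-seq libraries (SMART-Seq v4) were made by the authors, per the labels' protocols. Listed in the submitters' processing notes are CASAVA 1.4, STAR, DESeq2 and the build mm10, without their roles. Strand is not stated, so reads of overlapping or near-identical genes could not be told apart. The deposited RNA-seq table gives raw read counts per gene, 33841054 to 44433699 per library. For RIP-seq, per the file headers, the authors deposited a mean normalized count (a signal), a log2 fold change, its SE and a Wald score, and p-values with adjusted p-values, already limited to enriched genes. Their shared table gives signed folds, used as a score.

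The main analysis used edgeR 4.0.16 under R 4.3.3 (filterByExpr, TMM factors, robust quasi-likelihood fit of all 12 libraries with group and an additive title prefix). Adjusted p-values are Benjamini-Hochberg values across the 13702 genes tested, called at 0.05. SE is the absolute log2 fold change divided by the square root of F. CPM are counts scaled to a common library total, after TMM. Log2 ratios within a prefix used CPM + 0.5. The procedure was tested on simulated data. The members, gene lists and tests were chosen with earlier results of these data known. Named with every library's value were Trp53, Cdkn1a, Mdm2, Mdm4 and the members past the threshold in both siRNA comparisons, and of each other list at most 4 such genes with the largest mean change (1 gene that the rule names is not reported here). Fas, given in every library for IL-17, was chosen after its values were seen. Alternatives were RLE factors, no filter, DESeq2 1.42.0, no prefix term, the compared groups alone, the 8 NA libraries alone, a term for every pair of group and prefix, and leaving out each library. The ratio in the RB160 libraries alone was chosen after seeing the data.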

Additional observations from a re-analysis of the deposited data

How the results depend on the processing

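The counts of p53 target genes past the threshold with Imp2 siRNA moved little with RLE factors, no filter on low counts or DESeq2: 11 to 13 rose and 5 fell without IL-17, and 12 to 13 rose and 3 to 4 fell with it. The main fit called 16.1% of all genes higher and 16.4% lower without IL-17, and 16.7% and 16.6% with it. Without the prefix term 0 rose and 0 fell in both comparisons. That fit called 0.920% of all genes higher and 1.29% lower without IL-17, and 0.949% and 1.37% with it. Its spread holds the difference between prefixes, and the part of this in the lost calls was not tested. The number that fell without IL-17 was 3 in the NA libraries alone (15.2% of all genes) and 3 with the compared groups alone (15.1%). With IL-17 it was 2 in the NA libraries alone (15.9%). Leaving out each library gave 10 to 11 higher and 2 to 5 lower without IL-17, and 11 to 13 higher and 2 to 3 lower with it. The 2 lower without IL-17 came without Imp2 siRNA replicate 3, where 11.1% of all genes were lower. In the fits that gave 2 lower with IL-17, 11.4% to 14.1% of all genes were lower. For IL-17 in control siRNA cells a term for every pair of group and prefix gave 1 higher (2.03% of all genes) and 2 lower (2.48%). The compared groups alone gave 1 higher (0.586%). For IL-17 in Imp2 siRNA cells both of these fits gave 1 higher (1.42% and 1.46% of all genes). Igf2bp2 had log2 ratios of -2.42 and -2.29 in the RB160 libraries alone, and leaving out each library gave -2.89 to -2.66 and -2.87 to -2.54. No value that passed in either setting changed sign. Single calls lost under an alternative are given with the genes, and their causes were not tested. No paired analysis was possible because the RNA-seq titles carry no replicate number shared between groups and the RIP-seq libraries, which do share numbers, enter only through the authors' comparison. Low counts limit Ddb2, at 1.33 to 5.04 CPM.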
